A study of Mus musculus with 3 samples.

Results

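On a 384-well plate of cells from cultured mouse embryonic kidneys, wells that the labels mark as containing several cells were set against the wells marked neither so nor as controls. A well was kept with at least 1000 counts of nuclear-encoded genes, leaving out spike-ins, mitochondrial genes and added reporter sequences. A single-cell well also had at most 30% mitochondrial counts. This left 38 of 42 multi-cell wells and 200 of 327 single-cell wells, which are 238 of the 1152 wells of the series. Both groups came from the same plate, so they shared genotype, culture, library and sequencing. The mice were C57BL/6 and carried LGR6-EGFP-IRES-CreERT2 and ROSA26-tdTomato, and the kidneys were taken at E12.5 and cultured for 5 days. The labels place the multi-cell wells in rows A to G of columns 18 to 23 and the controls in rows A to O of column 24. They give neither the number of cells in a multi-cell well nor the sort gate of either group. The labels likewise name no agent that would activate the inducible Cre and no number of kidneys.

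Nephrons form from a self-renewing mesenchymal population, the nephron progenitors, which express the transcription factors Six2, Cited1, Sall1 and Eya1 and condense around the tips of the branching ureteric bud. Wnt signals turn part of them into the pretubular aggregate and renal vesicle, marked by Pax8, Lhx1, Fgf8 and Wnt4, from which podocytes and the tubule segments arise. Around them lies a collagen-rich stroma descended from Foxd1-positive cells. In these mice the Lgr6 locus carries a reporter and an inducible Cre, and the tdTomato reporter at ROSA26 marks cells in which Cre has acted, together with their descendants.

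Multi-cell wells were richer than single-cell wells in nephron progenitor, early nephron and epithelial transcripts and in the tdTomato reporter, and poorer in stromal and contractile transcripts. Levels are counts per 1000000 counts of the well (CPM), averages run over all wells of a group, and a number of wells beside an average is the number with a count. Six2 averaged 405.5 CPM in multi-cell wells and 73.2 CPM in single-cell wells, Pax8 averaged 203 and 29.1 CPM, and tdTomato averaged 557 and 77.3 CPM. The collagen gene Col1a1 averaged 2009 CPM in multi-cell wells and 6797 CPM in single-cell wells. These differences were carried by many wells, whereas the globin, macrophage and some segment-specific transcripts that stood high in the multi-cell group came mostly from 1 well each. All wells lie on 1 plate and wells are not replicates of a condition, so no test between the groups was possible. Means weight every well equally. In a well of several cells, fewer cells of a type and less RNA per cell cannot be told apart.

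The multi-cell wells held slightly more counts than the single-cell wells. Nuclear counts per well were 3285.7 at the lowest, 11729.5 at the median and 55262.7 at the highest in multi-cell wells, against 1100, 9212.1 and 77739.7 in single-cell wells. The ratio of the medians was 1.27, and the ranges overlapped over almost their whole length. The 4 multi-cell wells left out held 157 to 371.2 counts, within the range of 12 to 557 counts of the 15 control wells. The 4 deepest multi-cell wells all lay in column 20, namely D20 with 55262.7 counts, C20 with 44932, E20 with 43210.1 and F20 with 41255. The median number of genes per well was 4299 in multi-cell wells and 3900.5 in single-cell wells. After each well was thinned to 1000 counts the medians were 797.5 and 776 genes. Thinned to 5000 counts they were 2751.5 genes in 32 multi-cell wells and 2649 genes in 180 single-cell wells, with 6 and 20 shallower wells left out. Spike-in counts, which do not depend on the cell, had medians of 369.55 and 436.95 per well. The mitochondrial share had a median of 4.89% in multi-cell wells and 3.61% in single-cell wells, or 3.99% in the 98 single-cell wells of rows A to G. Whether this share bears on the gene differences was not tested.

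Of 11587 genes with at least 20 counts and a count in at least 10 wells, 469 (4.05%) were at least 2-fold higher in multi-cell wells and 1051 (9.07%) at least 2-fold lower. A call also needed a count in at least 5 wells of the higher group and the same fold after the well with the highest CPM was left out. The median log2 ratio of all measured genes was 0.03. The condition on the top well mattered for the higher genes, since 928 reached 2-fold on at least 5 wells and 459 of those lost it without their top well. Among the called genes, 261 higher and 424 lower ones were broadly shared, with a count in at least 25% of the wells of the higher group and at most 25% of its counts in 1 well.

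**Figure D1:**
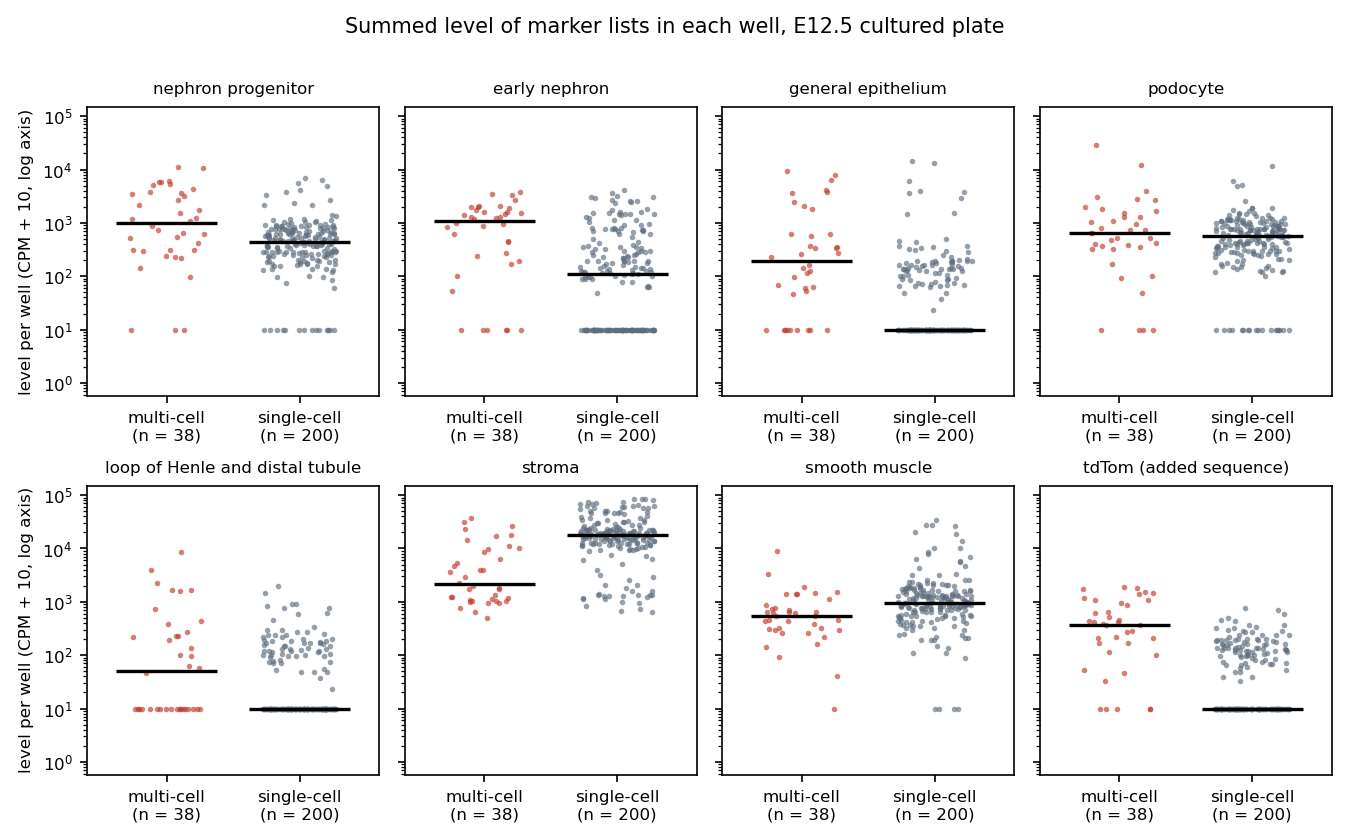
Summed level of 7 marker lists and of tdTomato in each well (vertical log axes, CPM + 10), multi-cell wells on the left and single-cell wells on the right of each panel, with black bars at the medians. The stroma list has its median at 2105 CPM in multi-cell wells and 17711 CPM in single-cell wells, and the early nephron list at 1081 and 100.4 CPM, while the points of both groups overlap in every panel.

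Nephron progenitor genes stood higher as a group. Of 14 members 9 were called higher and none lower, 3 were measured without a call, and 2 were under the count filter. The median log2 ratio of the 12 measured members was 2.34. Six2, which maintains the progenitor state, had counts in 18 of 38 multi-cell wells and 41 of 200 single-cell wells, a ratio of 5.54. Its CPM per well was 0 at the lowest, 0 at the median and 2500 at the highest in multi-cell wells, and 0, 0 and 3173 in single-cell wells. The Six2 level thus overlapped fully between the groups, and the share of wells with a count was 47.4% in multi-cell and 20.5% in single-cell wells. Cited1, a transcriptional co-regulator of the most undifferentiated progenitors, averaged 340.6 CPM in 10 multi-cell wells and 32.7 CPM in 32 single-cell wells, a ratio of 10.4. Uncx, a homeobox gene, averaged 410 CPM with counts in 23 multi-cell wells and 49.4 CPM with counts in 33 single-cell wells. Eya1, a co-activator that binds Six2, was 6.25-fold and Sall1, a zinc-finger regulator of progenitor survival, 4.82-fold higher. Gdnf, the ligand that draws out the ureteric bud, was 3.97-fold higher with counts in 12 multi-cell and 21 single-cell wells. Meox1, Crym and Spock2 were called higher too. Osr1, Itga8 and Hoxd11, which are also active in stromal or wider metanephric mesenchyme, had ratios of 1.34, 1.01 and 1.06.

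Genes of the first nephron structures went the same way. Of 12 members of that list 8 were called higher, Wnt4 was measured without a call, and Dll1, Cdh6 and Lgr5 were under the filter. The median log2 ratio of the 9 measured members was 2.04. Pax2, needed for progenitors and for the ureteric bud, had 0, 283 and 1426 CPM at the lowest, median and highest multi-cell well, and 0, 0 and 1234 CPM in single-cell wells, with counts in 25 and 42 wells. Pax8, its relative that appears with the pretubular aggregate, had counts in 25 multi-cell wells and 25 single-cell wells, with medians of 87.9 and 0 CPM. Fgf8, a survival factor of the early vesicle, averaged 58.7 CPM in 12 multi-cell wells and 0.893 CPM in 3 single-cell wells. Lhx1, required to form the vesicle, was 4.10-fold and Jag1, a Notch ligand, 3.23-fold higher. Emx2 and Bmp2 were also called higher. Wnt4, the signal by which progenitors become epithelial, did not follow: it averaged 215.6 CPM in 12 multi-cell wells and 247.4 CPM in 70 single-cell wells, a ratio of 0.87. Its highest single-cell level, 3221 CPM, equalled the whole early nephron list of well A8, which also held 16124 CPM of the stroma list. Wnt4 counts therefore need not mark early nephron cells alone.

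The 10 broadly shared genes with the largest ratios were Fgf9, Cited1, Bmp7, Uncx, Cldn9, Wfdc2, Rap1gap2, Ccdc88c, Pax2 and Pax8. Fgf9, a growth factor that keeps progenitors undifferentiated, had 24 counts in 10 multi-cell wells and 1 count in 1 single-cell well. Its ratio of summed counts was 87.8, with an exact 95% interval of 14.3 to 3613. Bmp7, which supports progenitor survival and renewal, averaged 157.8 CPM in 23 multi-cell wells and 18.9 CPM in 18 single-cell wells. Cldn9, a tight junction claudin, averaged 52.8 CPM in 16 multi-cell wells and 6.45 CPM in 6 single-cell wells. Wfdc2, a secreted epithelial protein, averaged 269.8 CPM in 18 multi-cell wells and 33.3 CPM in 19 single-cell wells, with 24.2% of the multi-cell counts in well E21. Rap1gap2, which switches off the small GTPase Rap1, was 7.86-fold and Ccdc88c, a Dishevelled-binding protein, 7.56-fold higher, with counts in 13 and 17 multi-cell wells. By the rule that chose them, none of the 10 drew more than 25% of its multi-cell counts from 1 well. The intervals of these ratios cover counting error only. The 15 control wells, with 2940 nuclear counts together, held 2 counts of Uncx, 1 of Cited1 and 1 of Pax8. They held none of the other genes named here, and these counts are too few to give a background level.

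A count in a well need not mean that a cell in it expressed the gene, so the shares were also read in wells rich in transcripts of the stroma, a tissue that largely lacks these genes. Among the 100 single-cell wells at or above the single-cell median of the stroma list, Six2 had a count in 15% (exact binomial 95% interval 8.65 to 23.5%), Pax2 in 10% and Pax8 in 5%, at a median of 8750.55 counts. In the 33 multi-cell wells below that stroma level the shares were 48.5% for Six2, 72.7% for Pax2 and 69.7% for Pax8, at a median of 13873.3 counts. In the 100 single-cell wells below it they were 26%, 32% and 20%, at a median of 9516.7 counts. The shares were thus highest in the multi-cell wells below the stroma limit, which were also deeper and had a lower stroma list, at a median of 1739 CPM against 12116 CPM in the single-cell wells below it.

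Epithelial genes followed the nephron genes. Of 14 general epithelial members 6 were called higher, 5 were measured without a call and 3 were under the filter, with a median log2 ratio of 1.94 over the 11 measured. Epcam, an epithelial adhesion molecule, averaged 98.7 CPM in 14 multi-cell wells and 25.8 CPM in 17 single-cell wells. Cdh1, the cadherin of epithelial junctions, averaged 88.6 CPM in 10 multi-cell wells and 17.9 CPM in 9 single-cell wells. Cdh16, the kidney-specific cadherin, was 5.37-fold, the claudin Cldn6 6.31-fold and the protease inhibitor Spint2 4.98-fold higher. Pkhd1, the ciliary gene of recessive polycystic kidney disease, was 5.00-fold higher. The keratins Krt8 and Krt18 had ratios of 1.40 and 1.21, with counts in 5 and 7 multi-cell wells.

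Transcripts of more differentiated segments were high in a few multi-cell wells each. Of 12 podocyte members 8 were measured and 3 were called higher, among them Wt1 (3.38-fold) and Robo2 (4.32-fold). Tcf21, which podocytes share with stroma, was called lower with 96.8 CPM in multi-cell wells and 292.6 CPM in single-cell wells. The slit diaphragm gene Nphs1 had 8 counts in 2 multi-cell wells and 4 counts in 2 single-cell wells. The podocyte list summed to 29070 CPM in well E19 and 12408 CPM in well C23, against a multi-cell median of 646 CPM and a single-cell median of 563 CPM. Without E19 the median log2 ratio of the podocyte list was 0.70, against 1.62 with it. Of 12 members of the loop and distal tubule list, 4 were measured and 2, the transcription factors Pou3f3 (7.48-fold) and Tfap2b (8.48-fold), were called higher. Slc12a1, the sodium-potassium-chloride transporter of the thick ascending limb, had 98.1% of its multi-cell counts in well E21. Of 13 ureteric members 5 were measured, and Wfdc2 alone was called. Ret, the receptor of the ureteric tip, had 2 counts in 1 multi-cell well and 3 counts in 2 single-cell wells. None of the 11 proximal tubule members listed in the table reached the count filter.

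**Figure D2:**
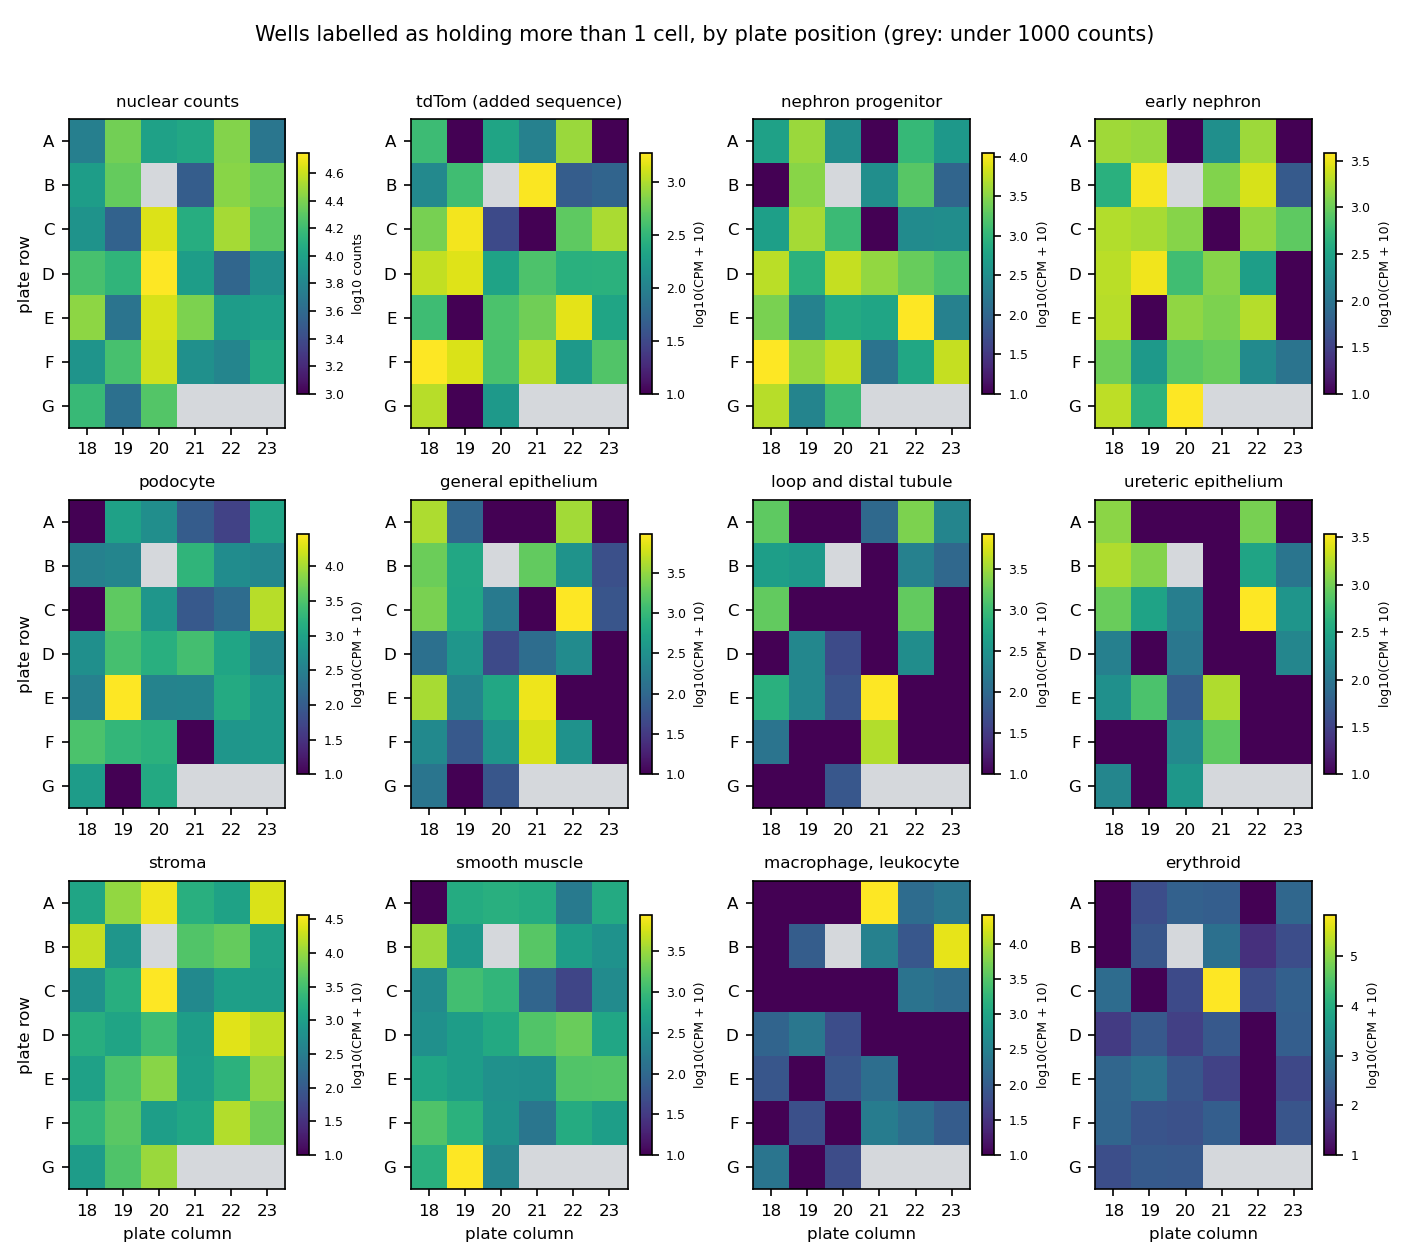
Plate positions of the wells labelled as holding more than 1 cell (columns 18 to 23, rows A to G), coloured by nuclear counts, tdTomato or the summed level of a marker list (log10 scales), with wells under 1000 counts in grey. Each marker list is brightest in different wells, such as E19 and C23 for podocytes, E21 for the loop, A21 and B23 for macrophages and C21 for erythroid genes.

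Stromal and contractile genes stood lower. All 16 stromal members were measured, 11 were called lower and none higher, with a median log2 ratio of −1.44. Col1a1, a fibrillar collagen, had counts in all 38 multi-cell wells and in 199 of 200 single-cell wells, with averages of 2009 and 6797 CPM. Dcn, a matrix proteoglycan, averaged 462.7 CPM in 17 multi-cell wells and 1614 CPM in 150 single-cell wells. Penk, an opioid precursor, averaged 403.3 CPM in 30 multi-cell wells and 1368 CPM in 166 single-cell wells. Tbx18, a transcription factor of the ureteral mesenchyme, averaged 22.7 CPM in 4 multi-cell wells and 125 CPM in 72 single-cell wells, a ratio of 0.18. Foxd1, the founder gene of the stroma, had a ratio of 0.42 and Pdgfra one of 0.40. Meis1, Pdgfrb, Postn, Ntn1 and Fmo1 were not called, with ratios of 0.61, 0.55, 0.60, 1.06 and 0.52. Of 10 smooth muscle members 6 were called lower, among them Acta2, the smooth muscle actin, at 199 CPM in multi-cell wells and 869 CPM in single-cell wells, and the myosin Myh11 at 22.6 and 111 CPM. The other 4, Des, Smtn, Cald1 and Tpm2, had ratios of 1.42, 1.02, 0.60 and 0.68.

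The 10 broadly shared lower genes with the smallest ratios were C1ra, Cox4i2, Synpo2, Fgd5, Spon2, Mrvi1, Pdlim3, Pcdh9, Creb5 and Tgm5. C1ra, a complement protease, had 1 count in multi-cell wells and 78 counts in 52 single-cell wells, a ratio of summed counts of 0.05 (exact 95% interval 0.00117 to 0.269). Cox4i2, a subunit of cytochrome oxidase, had 2 counts in 2 multi-cell wells and 111 counts in 62 single-cell wells. Synpo2, an actin-binding protein of muscle, had 1 count in multi-cell wells and 113 counts in 53 single-cell wells. The other 7 had counts in 2 to 5 multi-cell wells and in 51 to 70 single-cell wells. After thinning to 1000 counts, Spon2 kept a count in 1 multi-cell well and the other 9 in none, while the 10 genes kept one in 4 to 17 of 200 single-cell wells, so that depth could not show a difference.

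Of 16 genes for extracellular matrix and mechanical response, 7 were called lower and none higher (median log2 ratio −0.997), among them Fn1 (ratio 0.49), Col6a1 (0.27) and Col5a1 (0.44). Basement membrane genes split: the collagen Col18a1 was 3.07-fold higher, with counts in 22 multi-cell and 63 single-cell wells, and Lama2, Nid1 and Nid2 were called lower among 14 members. The epithelial laminins Lama1 and Lama5 had ratios of 2.39 and 2.23 without a call. No member of the proliferation list was called among 16, with a median log2 ratio of 0.15, and Mki67 averaged 160 CPM in multi-cell wells and 189 CPM in single-cell wells. Immediate early and heat shock genes had no call either among 16, with a median of −0.28. Of 19 measured hypoxia and glycolysis genes 2 were called lower, Ddit4 and P4ha1, but none against the single-cell wells of rows A to G or with summed counts. The summed level of that list had a median of 7014 CPM in multi-cell wells, 10186 CPM in all single-cell wells and 5812 CPM in those of rows A to G, so its direction depended on which single-cell wells were used. Endothelial genes had 2 of 11 members called lower, Tie1 and Plvap, and 6 measured. Neither call held without the 7 single-cell wells over 3 times the median count or against rows A to G. In both settings only 3 members were measured, so a call could also be lost to the count filter. Single-cell well E5 held 13474 CPM of the list, while both group medians were 0. Of 11 neural members 5 were measured, and Elavl4 was called higher and Tubb3 and Stmn2 lower. Of 11 interferon members 7 were measured and 2 were called lower, among them Ifitm3. Counts of called members are to be read against the 4.05% of all measured genes called higher and the 9.07% called lower.

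The tdTomato reporter was detected in more multi-cell wells and at higher levels. TdTomato had counts in 33 of 38 multi-cell wells (86.8%, exact binomial 95% interval 71.9 to 95.6%) and in 92 of 200 single-cell wells (46.0%, 38.9 to 53.2%). Its level was 0, 364 and 1875 CPM at the lowest, median and highest multi-cell well, and 0, 0 and 751 CPM in single-cell wells. The ratio of means was 7.20, the ratio of summed counts 6.15 (exact 95% interval 5.08 to 7.44), and well F18, the highest, held 8.11% of the multi-cell counts. The groups overlapped, yet 21 of 38 multi-cell wells lay above the single-cell 95th percentile of 312 CPM, which 10 of 200 single-cell wells exceeded. After thinning to 1000 counts 12 of 38 multi-cell wells and 8 of 200 single-cell wells kept a tdTomato count. The 15 control wells together held 1 tdTomato count in 2940 nuclear counts, or 340 CPM, too few counts to give a background level. The added sequence of the Lgr6 allele, EGFP-IRES-Cre, did not follow tdTomato: it had 17 counts in 13 multi-cell wells and 103 counts in 78 single-cell wells, with means of 24.5 and 51.7 CPM and a ratio of summed counts of 0.60 (0.339 to 1.02). Lgr6 itself had 2 counts in 1 multi-cell well and 5 counts in 4 single-cell wells, too few for a comparison. Of the 17 genes of the Lgr and Wnt list 13 were measured. The R-spondin Rspo1 was called higher (3.60-fold) and Wnt5a and Dkk2 lower, and Lgr4, another R-spondin receptor, had a ratio of 2.37 without a call.

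Among multi-cell wells, the tdTomato level was set beside the nephron and epithelial lists. A well was taken as nephron-rich when at least 1 of 7 lists (those of general and ureteric epithelium, of early nephron and nephron progenitors, of podocytes and of the proximal and distal tubule) lay above the single-cell 95th percentile. This held for 27 of 38 multi-cell wells (71.1%, 54.1 to 84.6%) and for 47 of 200 single-cell wells (23.5%). The name is shorthand, since a well high in the ureteric list alone, or in 1 gene of a list, also passed. Single-cell well A8 passed with 3221 CPM of the early nephron list, equal to the highest single-cell Wnt4 level, beside 16124 CPM of stroma. The 27 nephron-rich multi-cell wells averaged 737 CPM of tdTomato and the other 11 multi-cell wells 115 CPM, at median depths of 17224.4 and 9644.1 counts. The 47 nephron-rich single-cell wells averaged 45.6 CPM and the other 153 single-cell wells 87.1 CPM. The mean was thus higher in nephron-rich wells among multi-cell wells and lower in them among single-cell wells. The lists differed: over the 38 multi-cell wells Spearman's rho with tdTomato was 0.42 for nephron progenitor, 0.42 for early nephron, 0.37 for general epithelium and 0.27 for podocyte genes. It was 0.02 for loop and distal, 0.08 for ureteric and 0.07 for proximal tubule genes. Wells E19 and A19, with 29070 CPM of the podocyte list and 3847 CPM of the nephron progenitor list, had no tdTomato count. Over the 200 single-cell wells rho was −0.11 for nephron progenitor genes, and with depth it was −0.07 in multi-cell and 0.12 in single-cell wells. These describe wells of 1 library, and a difference in sort gate between the groups cannot be told apart from a difference between multi-cell and single-cell wells.

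**Figure D3:**
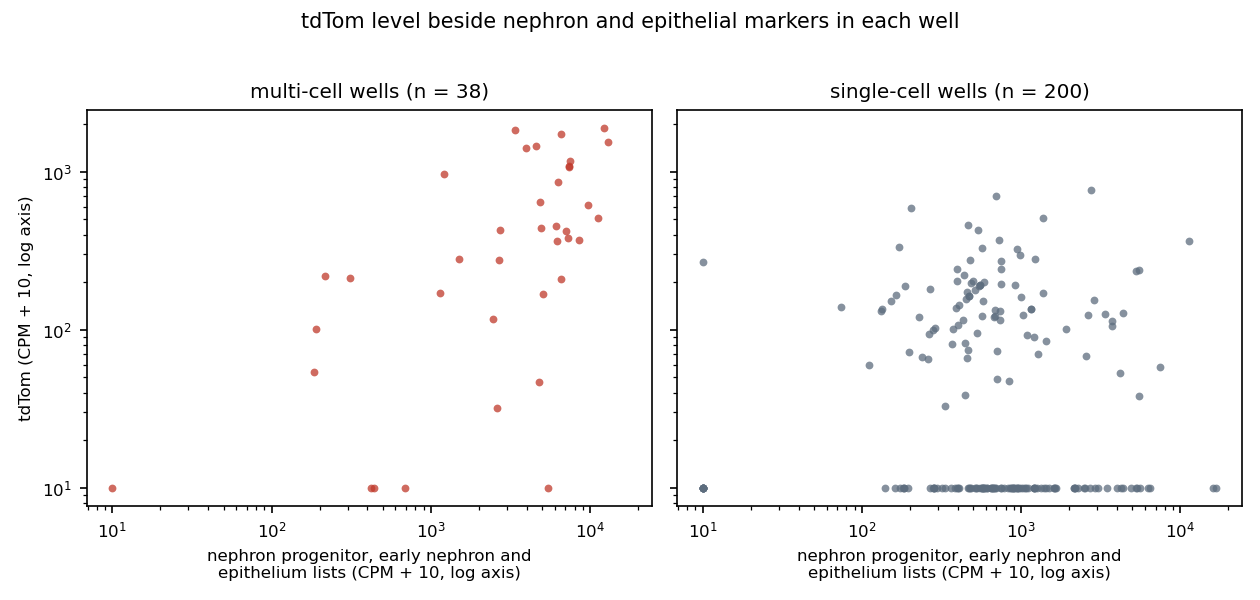
TdTomato level of each well (vertical axis, CPM + 10, log) against the summed nephron progenitor, early nephron and general epithelium lists (horizontal axis, CPM + 10, log), with 38 multi-cell wells on the left and 200 single-cell wells on the right. Multi-cell wells with high list levels reach 1875 CPM of tdTomato, while the single-cell wells reach 751 CPM and many with high list levels lie at 0.

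Few multi-cell wells had a high stroma list, so few could combine it with a high nephron or epithelial list. The stroma list lay at or above the single-cell median in 5 of 38 multi-cell wells (13.2%), and in 1 of these, B18, a nephron or epithelial list was also above its single-cell 95th percentile. Among the 100 single-cell wells at or above that median, 11 met both conditions. Over all wells of a group both conditions were met in 2.63% of 38 multi-cell and 5.50% of 200 single-cell wells. With 1 multi-cell well, the order of the groups depended on the base. The stroma list of 14 multi-cell wells (36.8%) lay under the single-cell 5th percentile, where 10 of 200 single-cell wells lie by construction. With 2 markers of a list required after thinning to 1000 counts, 27 of 38 multi-cell wells (71.1%) and 50 of 200 single-cell wells (25%) scored for a nephron or epithelial list. Stroma was scored in 22 (57.9%) and 181 (90.5%), and both together in 14 (36.8%) and 38 (19%). These gaps narrowed with depth. At 5000 counts 29 of 32 multi-cell wells (90.6%) and 143 of 180 single-cell wells (79.4%) scored for a nephron or epithelial list, 31 (96.9%) and 178 (98.9%) for stroma, and 28 (87.5%) and 141 (78.3%) for both. Without thinning, all 38 and 200 wells scored for stroma, and 36 (94.7%) and 174 (87%) for both. Between 1000 and 5000 counts, gaps for single lists with stroma widened instead. Early nephron with stroma went from 13.2% and 1.5% to 59.4% and 13.9%. General epithelium with stroma went from 7.89% and 1% to 34.4% and 5%. Nephron progenitor with stroma went from 15.8% and 6.5% to 65.6% and 47.8%, but unthinned shares were 71.1% and 69%. At 5000 counts and without thinning, most wells of either group thus scored for stroma and for at least 1 of the 7 pooled lists. Those lists hold Osr1, Itga8, Hoxd11 and Tcf21, which are also active in stroma or wider mesenchyme. Such a score therefore need not mean markers of separate lineages in 1 well. Among multi-cell wells, high levels of both kinds of list could be seen only in the 5 at or above the stroma limit. Whether high levels of the lists kept apart beyond this limit was not tested. Over 669 genes averaging at least 1 count at 5000 counts per well, the median coefficient of variation was 0.878 in multi-cell wells and 0.882 in single-cell wells. Counting error alone would give 0.736 and 0.745, so these values say little about the spread between wells.

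Nephron progenitor genes lay above the single-cell 95th percentile in 13 multi-cell wells and general epithelial genes in 12. Early nephron genes did so in 4 of 38 (10.5%, exact binomial 95% interval 2.94 to 24.8%), against 5% of single-cell wells by construction. That limit was 2363 CPM, whereas the list medians were 1081 CPM in multi-cell and 100 CPM in single-cell wells. The single-cell wells above it differed in stroma, such as A8 with 16124 CPM and A4 with 1791 CPM of the stroma list. Few multi-cell wells above this limit thus do not mean that the list was little raised. The wells at the extremes differed in their leading list. Wells F18 and E22 had the highest nephron progenitor levels, 10998 and 10908 CPM, beside 250 and 0 CPM of the general epithelial list. Well C22 had the highest epithelial level, 9543 CPM. In it lay 100% of the multi-cell counts of Atp6v1g3, a proton pump subunit of intercalated cells, and 92.2% of those of the claudin Cldn8. Well E21 had 8470 CPM of the loop and distal list, and F21 came next with 3859 CPM. Well C20, among the deepest, had the highest stromal level, 37378 CPM, beside 1180 CPM of the nephron progenitor list. Wells A20, D22 and A23 followed with 30888, 26073 and 23196 CPM of stroma.

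Genes that rested on 1 well were set apart from these shared differences. With at least 20 multi-cell counts, at least 50% of them in 1 well and a ratio of at least 2, there were 72 such genes, spread over 8 wells. Of these, 48 passed the count filter and 8 were still called higher. Well C21 held 11, the globins among them. Hbb-y, an embryonic globin, had 99.1% of its multi-cell counts in C21, Hba-a1 98.8% and Hba-x 98.1%, and the erythroid list summed to 693792 CPM in that well. Across groups the median erythroid level was 176 CPM in multi-cell wells and 183 CPM in single-cell wells, with counts in 31 of 38 and 172 of 200 wells, so low globin counts were widespread in both. Well B23 held 22 single-well genes, among them Gm10800 (87.1% of its multi-cell counts) and the lipoprotein gene Apoe (67.3%), and A21 held 16, among them the complement gene C1qc. The macrophage list summed to 26101 CPM in A21 and 19596 CPM in B23, where the nephron progenitor list was at 0 and 87.6 CPM. Well C22 held 9 single-well genes, E21 7, C23 4, E19 2 and F20 1. Without C21, A21 and B23, a choice made after seeing the data, 509 genes were called higher and 1071 lower, 9 nephron progenitor genes were called higher, and the median log2 ratio of the macrophage list was −2.77, against 1.29 with them. Of 9 measured macrophage members Ptprc alone was called higher with all wells in place.

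**Figure D4:**
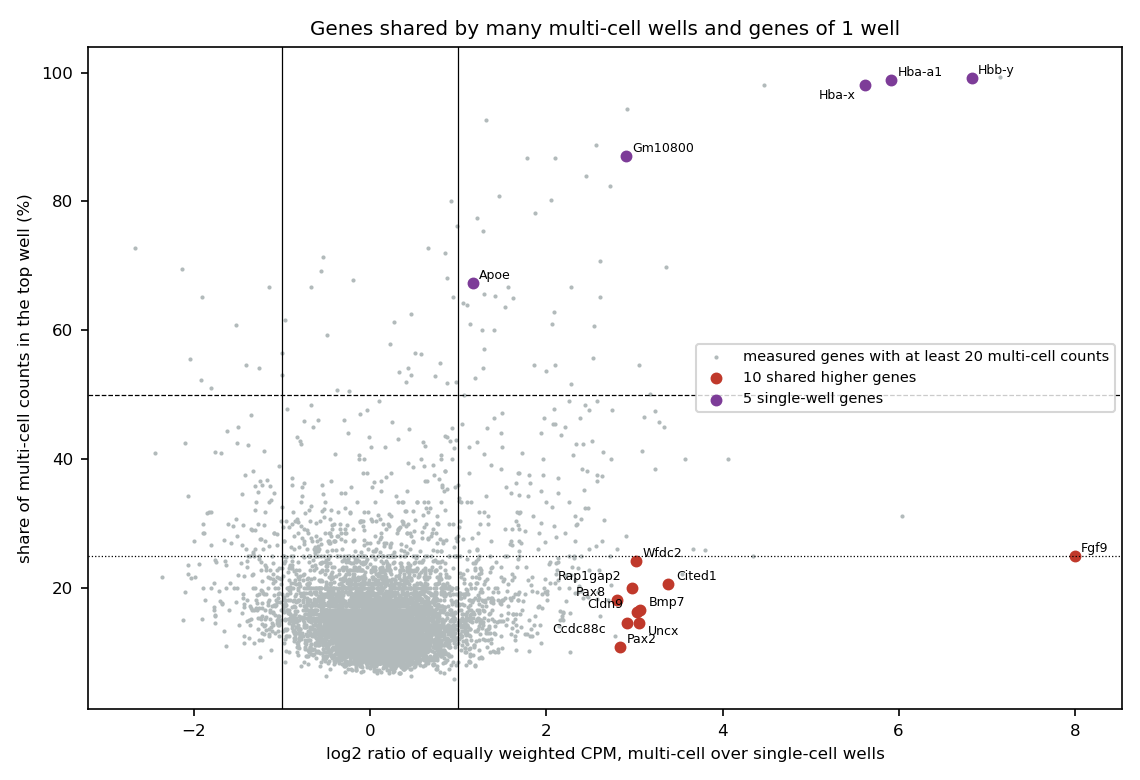
Share of a gene's multi-cell counts that lay in its top well (vertical axis, percent) against the log2 ratio of equally weighted CPM in multi-cell over single-cell wells (horizontal axis), for measured genes with at least 20 multi-cell counts. By the rules that chose them, the 10 broadly shared higher genes lie at or below 25% (dotted line) and the 5 single-well examples above 50% (dashed line). Of the latter, 3 globins lie at 98.1 to 99.1%.

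The other cultured plate of the series, begun at E11.5, has multi-cell wells at the same positions. Its labels disagree on the length of culture, 7 days in the title and 5 days in the stage. There, 36 multi-cell wells and 300 single-cell wells were kept, and 294 of 12397 genes (2.37%) were called higher and 1556 (12.6%) lower. Over nephron progenitor genes the median log2 ratio was 1.71 with 8 of 13 measured members called higher, and the stroma list −0.85 with 6 of 16 called lower. The early nephron list had a median of 1.24 with 2 of 7 measured members called higher, and general epithelium 2.08 with 5 of 8. TdTomato averaged 784 CPM in multi-cell wells and 66.5 CPM in single-cell wells, a ratio of 11.8. Of the genes called on the E12.5 plate, 115 higher (24.5% of its list and 39.1% of the other) and 316 lower (30.1% and 20.3%) were called in the same direction on both. In the opposite direction, 21 genes higher on the E12.5 plate were called lower on the E11.5 plate, and 4 lower ones were called higher there. Of the 10 leading shared genes, Cited1, Bmp7, Uncx, Cldn9, Ccdc88c, Pax2 and Pax8 were called higher on both plates. Fgf9, Wfdc2 and Rap1gap2 were not called on the E11.5 plate, with ratios of 2.32, 2.50 and 0.88. Of the 10 leading lower genes, Mrvi1, Pdlim3, Pcdh9 and Tgm5 were called lower there too. C1ra, Fgd5, Spon2 and Creb5 were not called, with ratios of 0.60, 0.49, 0.79 and 0.47. Cox4i2 and Synpo2 had ratios of 1.25 and 1.48 there. In addition, the smooth muscle list had a median log2 ratio of −1.93 on the E12.5 plate and −0.10 on the E11.5 plate. The difference between the plates was not tested.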

How the data were processed

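Transcripts were counted by SORT-seq, a plate method with well barcodes and molecular identifiers (UMIs). Collagenase dissociation of the explants and a FACSAria II sort are stated per the labels' protocols. The submitters' processing notes name featureCounts 1.5.2, STAR 2.6.1a and the build GRCm38.p5 without settings. The authors deposited expected counts per gene and well, which are UMI numbers corrected for identifiers drawn more than once (1.53% of the values above 0 on the E12.5 plate were not whole). Counts without a known well barcode, 4.27% of the plate, were left out, as the name of their column implies. Per the label positions, wells were grouped as multi-cell, control or other; 1 well over 30% mitochondrial counts was left out.

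CPM were computed per well over nuclear-encoded genes and averaged with equal weight. Counts were rounded for thinning (seed 0) and for exact Poisson and Clopper-Pearson intervals. A gene without counts in a group was set to a floor of 3 counts over the group. No test was run, since each group is 1 plate, and no doublet caller was run, since one group holds several cells by label. The steps were tested on simulated data. Python 3.11.15, numpy 2.4.6, pandas 2.3.3, scipy 1.17.1 and matplotlib 3.10.9 were used.

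The genes named are the 10 broadly shared genes with the largest and the 10 with the smallest ratios, 5 single-well genes with the most counts (at most 3 of 1 well), a fixed set of kidney genes and list members. The members and lists were chosen with earlier results of these data known. Symbols are as in the tables, and some list members are not reported here by name. Alternatives changed well and gene filters, weighting, totals, thinning and the wells included.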

Additional observations from a re-analysis of the deposited data

Results flagged for a closer look

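A pair of marker lists differed in direction between the cultured plates. The macrophage list had a median log2 ratio of multi-cell over single-cell wells of 1.29 on the E12.5 plate and −0.32 on the E11.5 plate, and wells A21 and B23 carried the E12.5 value. The ureteric epithelium list had a median log2 ratio of 0.65 on the E12.5 plate, with 1 of 5 measured members called higher and a median of −0.04 without well E19. On the E11.5 plate the median was −0.69, with 1 of 6 measured members called higher and 3 lower. Neither difference was tested.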

How the results depend on the processing

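With 1 plate and wells that are not replicates, the spread between plates is unknown. No paired analysis was possible because both groups come from 1 plate and no test was run. With wells thinned to 1000 counts, 99 of 2764 measured genes (3.58%) were called higher and 361 (13.1%) lower. With at least 100 counts and 20 wells per gene, 104 of 6318 (1.65%) were called higher and 393 (6.22%) lower. The share called higher was thus smaller among genes with more counts than the reported 4.05%. Without the condition on the top well 928 (8.01%) were called higher, and at 3-fold 176 (1.52%) were called higher and 481 (4.15%) lower. With summed counts the early nephron median log2 ratio was 2.69, higher than the reported value. Against single-cell wells of rows A to G this median was lower than reported, and 6 of 9 measured members were called higher instead of 8. With wells thinned to 1000 counts it was lower still, on 2 measured members of which 1 was called higher. Both lower medians stayed above 2-fold. Leaving out each multi-cell well in turn gave depth ratios of 1.22 to 1.33, ratios of genes per well of 1.04 to 1.17, 426 to 500 genes higher and 1018 to 1116 lower. The median log2 ratios then were 2.15 to 2.38 for nephron progenitor, 1.78 to 2.07 for early nephron, 1.63 to 1.98 for epithelium, −1.67 to −1.41 for stroma, and 2.75 to 2.89 for tdTomato itself. Among medians and ratios of at least 2-fold, the sign turned in these cases. Endothelium was 0.33, on 3 measured members, without the 7 single-cell wells over 3 times the median count. It was 0.46, on 1 member, under the stricter gene filter. Without C21, A21 and B23 macrophage was −2.77, erythroid −0.36, Hba-a1 −1.18, Hba-x −0.53 and Apoe −2.24, and leaving out 1 well at a time gave −0.40 to 5.96 for erythroid, −1.04 to 5.96 for Hba-a1 and −0.54 to 5.65 for Hba-x, lowest without C21. These wells hold most of the counts of those genes in the multi-cell group. Medians nearer 0 turned sign too: against rows A to G hypoxia was 0.06, basement membrane −0.23 and interferon 0.10, and with summed counts basement membrane was −0.16 and the Lgr and Wnt list 0.16. In all, 104 of 112 summary values and 504 of 571 gene and list values moved by less than the limits set for them.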

Other observations

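Some broadly shared higher genes outside the marker lists were named after their values were seen. Etv4, a transcription factor that acts downstream of FGF and GDNF signals, averaged 93.9 CPM in multi-cell wells and 15.7 CPM in single-cell wells, with counts in 23 and 22 wells. Chd7, a chromatin remodeller, averaged 151 CPM in multi-cell wells and 25.3 CPM in single-cell wells, with counts in 25 and 33 wells. Celsr1, a planar polarity cadherin, averaged 34.2 and 4.98 CPM with counts in 15 multi-cell and 11 single-cell wells. Hes6, a member of the Hes family of transcription factors, averaged 66.5 and 13.2 CPM with counts in 20 multi-cell and 26 single-cell wells. The added sequence NeoR averaged 53.9 CPM in multi-cell wells and 70.0 CPM in single-cell wells, with counts in 15 and 76 wells.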
